A study of Drosophila melanogaster with 30 samples.

Results

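The 9 genes described here, trp, trpl, inaD, norpA, inaC, ninaC, Arr1, Arr2 and chp, encode the ion channels, scaffold, enzymes and arrestins of the light-signalling cascade of fly photoreceptors, and 1 adhesion protein of the membrane that holds it. They were taken from the count table by gene name and are 9 of its 17559 genes. Each of the 9 was among the 11457 genes that passed the filter on low counts. In Drosophila photoreceptors, rhodopsin that has absorbed light switches on a Gq protein, the Gq protein switches on the phospholipase C encoded by norpA, and the TRP and TRPL cation channels of the microvilli open. INAD, a protein with PDZ domains, holds TRP, the phospholipase and the eye protein kinase C encoded by inaC together in a signalling complex. The arrestins bind activated rhodopsin and end its signalling, NINAC is a class III myosin with a kinase domain, and chaoptin, the product of chp, joins the membranes of neighbouring microvilli. The cascade is known from the eye, whereas the mushroom body, the tissue named in the labels, is a brain structure in which olfactory memories form.

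The series measured nuclear RNA in order to find targets of the histone demethylase Kdm4B. Per the labels' protocols, nuclei were captured by anti-FLAG affinity from crosslinked head homogenates, and polyadenylated RNA was sequenced. There were 5 genotypes: the line MB131, MB131 with Kdm4B RNAi, the line MB477, MB477 with Kdm4B RNAi, and flies without CsChrimson, a red-light-gated cation channel, whose line is not named. Each genotype had 3 naive libraries and 3 activated libraries, the latter from flies given 5 min of red-light activation and then 10 min of rest; activated flies without CsChrimson carry this same treatment label. The labels give the strain CS10 for every library but 1, a naive MB477 RNAi library. Which cells the lines MB131 and MB477 drive expression in, which transgene carried the FLAG tag, and whether replicates came from separate flies is not stated by the labels. The p-values below therefore reflect variation among these libraries alone.

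Libraries held 8291599 to 14344348 counts. Markers of the labelled tissue were present: all 10 Kenyon cell markers had counts, and their summed level was 2865 to 4819 CPM (counts scaled to a common library size with TMM factors) across libraries. Transcripts of the eye were present too, with the summed level of 13 photoreceptor genes outside the 9 at 7283 to 18132 CPM. Muscle markers summed to 1982 to 6633 CPM and fat body markers to 11796 to 45594 CPM. The presence of Kenyon cell markers therefore does not show how far nuclei of that tissue were enriched. Kdm4B itself had 2 to 26 counts per library and did not pass the test in any RNAi comparison, with log2 changes of -1.05 to 0.24 and standard errors (SE) of 0.60 to 0.67, so its counts give no check of the RNAi labels. The 3 naive libraries of MB477 stood apart from the other 27, with scores on the first principal component of all genes of 64.2 to 68.0 against -25.5 to 22.9. Every comparison below that uses MB477 naive libraries rests on these 3 and has no value without them, which applies to activation in MB477, RNAi in naive MB477 flies, the line comparison in naive flies and the interactions built on them. Since these comparisons share libraries, their values for the 9 genes are not independent of each other.

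The genes lie on chromosome arms 2L, 2R, 3L and 3R and on X, in dm6 coordinates of the BDGP6 annotation. The channel genes trp (3R, 29914521 to 29920289, minus strand) and trpl (2R, 9753697 to 9765518, plus strand) are on different chromosomes. The INAD complex genes inaD (2R, 22855688 to 22858794, minus strand), norpA (X, 4322626 to 4365408, plus strand) and inaC (2R, 16898535 to 16901575, plus strand) are likewise apart from each other, as are ninaC (2L, 7377702 to 7384344, plus strand) and chp (3R, 31204180 to 31210730, minus strand). The arrestin genes are Arr1 (2L, 18078269 to 18081307, plus strand) and Arr2 (3L, 8647261 to 8648936, minus strand). Whether the counting used strand is not given in the sources used here. The exons of inaD share 7 bases with those of RpL23, a ribosomal protein gene on the opposite strand; trpl, norpA and Arr2 overlap other genes but share no exon bases with them.

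Per kilobase of exon, the arrestin Arr2 was by far the most abundant of the 9 transcripts, with a median over the 10 groups of 2120 CPM per kb. Its relative Arr1 followed at 529 CPM per kb. The channel genes stood at 241 (trp) and 167 (trpl) CPM per kb, ninaC at 155 and the scaffold gene inaD at 112. Below these were norpA at 108, inaC at 71.95 and chp at 68.4 CPM per kb. Summed over the 9 genes, libraries held 6322 to 12212 CPM.

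All 9 genes varied across the 10 groups, by 1.43 times between the lowest and the highest group mean for norpA and by 2.90 times for inaD. The MB477 naive group was the lowest of the 10 for 6 genes (inaD, inaC, ninaC, Arr1, Arr2 and chp), the naive group without CsChrimson was the lowest for trpl and norpA, and the MB131 RNAi naive group was the lowest for trp. Activated groups were the highest for every gene: the one without CsChrimson for trp, inaD, inaC, Arr1 and Arr2, the MB131 group for norpA, ninaC and chp, and the MB477 group for trpl. Neighbours in these orders often could not be separated, since the CPM ranges overlapped for 7 of 9 neighbouring pairs of groups for norpA and for 2 of 9 for trp and trpl. In bulk nuclei, fewer cells of a type and less RNA per cell cannot be told apart.

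**Figure D1:**
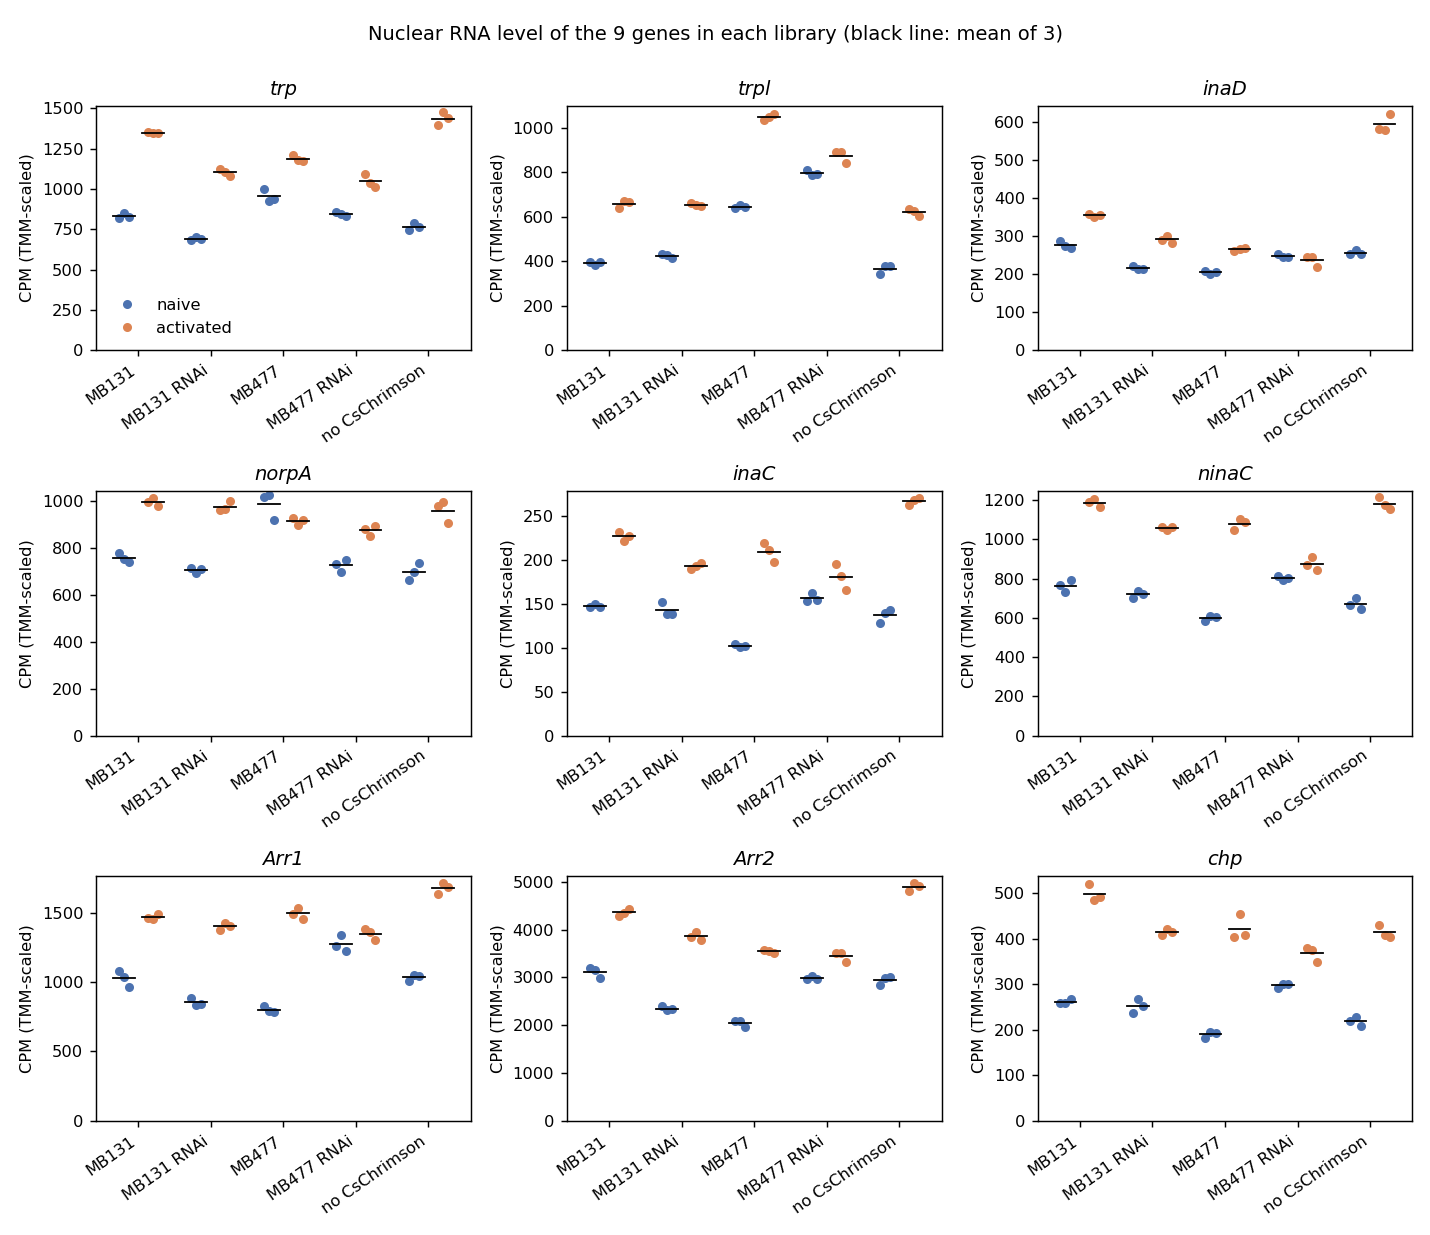
Level in TMM-scaled CPM (y axis, from 0) of each of the 9 genes in every library, with naive libraries in blue, activated libraries in orange, the 5 genotypes along the x axis and a black line at the mean of 3 libraries. Activated libraries lie above naive ones in most panels, the inaD panel has 3 activated libraries without CsChrimson at 579 to 621 CPM far above the rest, and the norpA panel has MB477 naive libraries as high as activated ones.

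Activated libraries held more of these transcripts than naive libraries of the same genotype. In MB131 flies all 9 genes were higher (median log2 fold change 0.62, edgeR quasi-likelihood test with adjusted p of at most 9.61e-11), against 12.7% of all genes tested higher and 11.8% lower. In MB131 flies with RNAi all 9 were higher (median 0.62), against 13.8% of all genes tested higher and 13.0% lower. In flies without CsChrimson all 9 were higher as well (median 0.82), against 11.1% of all genes tested higher and 9.98% lower. In MB477 flies 8 were higher and norpA was lower (median 0.80), against 31.8% of all genes tested higher and 27.7% lower, so calls there were common across the genome. In MB477 flies with RNAi 7 were higher and inaD and Arr1 did not pass (median 0.20), against 15.6% of all genes tested higher and 13.1% lower. With library totals in place of TMM factors, an alternative chosen after seeing the data, the medians of the 9 were 0.57 (MB131), 0.56 (MB131 with RNAi), 0.76 (MB477), 0.11 (MB477 with RNAi) and 0.79 (no CsChrimson). In MB477 with RNAi only 4 genes (trp, norpA, Arr2 and chp) were then higher, and inaD was lower. The shares of all genes called higher and lower became 9.57% and 15.3% in MB131 and 10.2% and 18% in MB131 with RNAi. They were 29.9% and 30.1% in MB477, 11.2% and 22.3% in MB477 with RNAi, and 8.83% and 12% without CsChrimson. The median over all genes tested lay within 0.01 of 0 in each of the 5 activation comparisons with TMM factors and between -0.09 and -0.03 with library totals. The genes trp, trpl, inaC, ninaC, Arr2 and chp, 6 of the 9, were higher in all 5 with TMM factors (trp, Arr2 and chp also with library totals), as were 2.41% of all genes tested (276 of 11457); these comparisons share no libraries, but the list was chosen with earlier results of these data known.

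**Figure D2:**
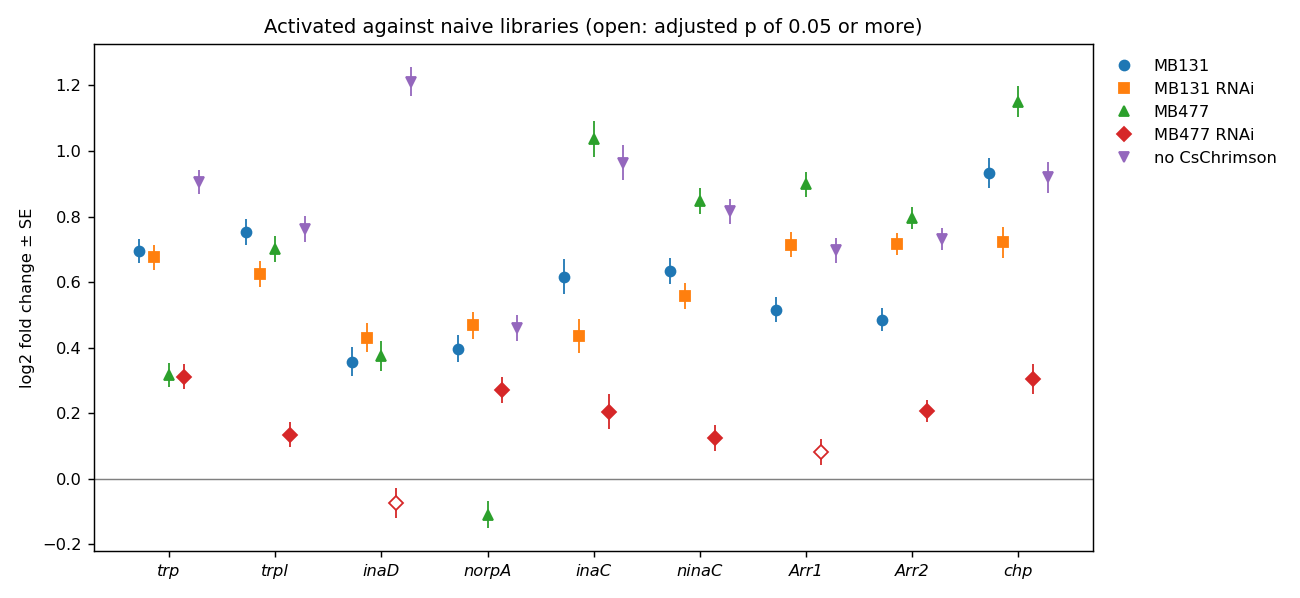
Log2 fold change of activated against naive libraries (y axis) for each gene (x axis) in the 5 genotypes, with bars of 1 SE and open symbols where the adjusted p was 0.05 or more. The MB477 RNAi values, between -0.07 and 0.31, are the lowest of the 5 for 8 genes, and the inaD value without CsChrimson is the highest of all at 1.21.

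The main light-sensitive channel gene trp had 821, 849.8 and 828 CPM in the naive and 1354, 1345 and 1344 CPM in the activated MB131 libraries. Without CsChrimson it had 745, 789 and 767 CPM in naive and 1394, 1477 and 1438 CPM in activated libraries. Groups were well apart in both genotypes, and the change was larger in the flies without the channelrhodopsin, at a log2 fold change of 0.91 ± 0.04 (SE, edgeR adjusted p = 1.78e-39) against 0.69 ± 0.04 in MB131 (adjusted p = 8.08e-31). In MB131 flies with RNAi trp moved from 692 ± 7.83 to 1105 ± 21.9 CPM (mean ± SD, n = 3), a change of 0.68 ± 0.04. In the MB477 genotypes the rise of trp was 0.32 ± 0.04 without RNAi, where naive libraries already stood at 999, 925 and 939 CPM and activated ones at 1209.9, 1183 and 1175 CPM, and 0.31 ± 0.04 with RNAi.

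The second channel gene trpl, whose product forms a channel of its own, had 396, 382 and 395 CPM in naive and 639, 669 and 668 CPM in activated MB131 libraries. In MB477 it had 641, 653 and 645 CPM in naive and 1036, 1048 and 1064 CPM in activated libraries. Activation therefore went with a similar fold in both lines, 0.75 ± 0.04 (log2) in MB131 and 0.70 ± 0.04 in MB477, from different starting levels (adjusted p of 2.94e-31 and 1.88e-30, edgeR). The rise was 0.76 ± 0.04 without CsChrimson, 0.62 ± 0.04 in MB131 with RNAi, and 0.14 ± 0.04 in MB477 with RNAi (adjusted p = 0.0046), where naive libraries at 809.8, 788 and 791 CPM and activated ones at 890.0, 891 and 844 CPM did not overlap. That last call was lost with library totals (0.05, adjusted p = 0.413; 0.000422 to 0.413 over all alternatives).

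The scaffold gene inaD set the flies without CsChrimson apart. There it had 252, 264 and 254 CPM in naive and 582, 579 and 621 CPM in activated libraries, a 2.32-fold difference (1.21 ± 0.04 on the log2 scale, edgeR adjusted p = 1.06e-43). In MB131 it had 287, 274 and 269 CPM in naive and 357, 351 and 355 CPM in activated libraries. That change of 0.36 ± 0.04 was close to the 0.43 ± 0.05 of MB131 with RNAi and the 0.38 ± 0.05 of MB477, each past the test. With RNAi in MB477 the ranges overlapped, with 254, 245 and 246 CPM in naive and 246, 244 and 219.8 CPM in activated libraries, and the change of -0.07 ± 0.05 did not pass (adjusted p = 0.257), though it did with library totals (-0.16, adjusted p = 0.00344; 0.00344 to 0.815 over all alternatives). Of 7 tested genes within 20 kb of inaD, none passed the activation test in flies without CsChrimson (edgeR adjusted p of 0.0838 or more). They were looked up after the inaD values were seen. RpL23 had -0.03 ± 0.06, and the largest value was 0.47 ± 0.24 for CR45469, at a mean of 6.31 CPM. CG3649 (1.92 CPM, SE 0.48) and fd59A (7.32 CPM, SE 0.21) were also low, so smaller changes there could have been missed.

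For norpA, the phospholipase C gene, MB477 flies without RNAi had no rise with activation, unlike the other genotypes. Naive MB477 libraries had 1016, 1025 and 917 CPM and activated ones 926, 899 and 918 CPM, which overlapped. The log2 fold change was -0.11 ± 0.04 (edgeR adjusted p = 0.0155), a call that was lost without activated replicate 2 (-0.09, adjusted p = 0.0689), naive replicate 1 (-0.09, 0.0989) or naive replicate 2 (-0.08, 0.134), with adjusted p-values of 0.000744 to 0.134 over all alternatives. In MB131 norpA had 777, 753 and 742 CPM in naive and 998, 1013 and 981 CPM in activated libraries, with no overlap. Its rise was 0.40 ± 0.04 there, 0.47 ± 0.04 in MB131 with RNAi, 0.46 ± 0.04 without CsChrimson and 0.27 ± 0.04 in MB477 with RNAi, each past the test and at most 1.38-fold.

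Transcripts of inaC, the eye protein kinase C gene, had their largest rise in MB477, from 104, 101 and 102 CPM in naive to 219, 212 and 198 CPM in activated libraries. This was 2.05-fold (1.04 ± 0.06, edgeR adjusted p = 3.16e-32). Without CsChrimson inaC went from 128, 139 and 144 to 263, 268 and 271 CPM, a change of 0.96 ± 0.05. The rise was 0.62 ± 0.05 in MB131 and 0.44 ± 0.05 in MB131 with RNAi. In MB477 with RNAi it was 0.20 ± 0.05 (adjusted p = 0.0016), between 154, 163 and 155 CPM in naive and 196, 182 and 166 CPM in activated libraries. Without activated replicate 1, the highest of these, the value was 0.14 and no longer passed (adjusted p = 0.0618). It did not pass with library totals either (0.11, adjusted p = 0.094; 0.000172 to 0.094 over all alternatives).

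The myosin III kinase gene ninaC followed a like order. It had 581, 611 and 606 CPM in naive and 1047, 1103 and 1089 CPM in activated MB477 libraries, the lowest naive level of the 5 genotypes and a change of 0.85 ± 0.04 (edgeR adjusted p = 9.78e-37). Without CsChrimson the change was 0.82 ± 0.04, in MB131 0.63 ± 0.04 and in MB131 with RNAi 0.56 ± 0.04, with groups that did not overlap. In MB477 with RNAi, libraries had 811, 790.5 and 805 CPM when naive and 867, 910.5 and 846 CPM when activated, a change of 0.12 ± 0.04 (adjusted p = 0.00895). This small rise did not pass without activated replicate 2 (0.09, adjusted p = 0.118), with library totals (0.03, 0.544) or with no filter on low counts (0.10, 0.0515), within 0.00354 to 0.544 over all alternatives.

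Of the arrestins, Arr2, the major arrestin of the eye, had 3193, 3159 and 2986 CPM in naive and 4288, 4355 and 4434 CPM in activated MB131 libraries. Without CsChrimson it had 2852, 2997 and 3004 CPM in naive and 4806, 4968 and 4922 CPM in activated libraries, its highest level in the 10 groups. Groups were apart in all 5 genotypes, with log2 fold changes of 0.49 ± 0.03 in MB131, 0.72 ± 0.03 with RNAi, 0.80 ± 0.03 in MB477, 0.21 ± 0.03 with RNAi and 0.73 ± 0.03 without CsChrimson (edgeR adjusted p of at most 4.82e-07).

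Arr1, the other arrestin of the eye, had 826, 790.5 and 786 CPM in naive and 1491, 1532 and 1456 CPM in activated MB477 libraries. The change of 0.90 ± 0.04 was its largest (edgeR adjusted p = 7.32e-39), ahead of 0.71 ± 0.04 in MB131 with RNAi, 0.70 ± 0.04 without CsChrimson and 0.52 ± 0.04 in MB131. With RNAi in MB477, naive libraries at 1258, 1336 and 1226 CPM overlapped activated ones at 1384, 1358 and 1302 CPM. The change of 0.08 ± 0.04 did not pass (adjusted p = 0.101), though it did without naive replicate 2, the highest of the naive libraries (0.12, adjusted p = 0.0316), or activated replicate 3, the lowest of the activated ones (0.11, just under the threshold). With library totals it was -0.01, and adjusted p-values were 0.0316 to 0.908 over all alternatives. The CPM of Arr2 over that of Arr1 ran from 2.35 ± 0.08 in MB477 RNAi naive libraries to 3.04 ± 0.07 in MB131 naive libraries (mean ± SD, n = 3).

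The microvillar adhesion gene chp had the largest fold change of the 9 genes in both lines without RNAi. It had 258, 258 and 268 CPM in naive and 521, 484 and 492 CPM in activated MB131 libraries, a change of 0.93 ± 0.05 (edgeR adjusted p = 2.17e-33). In MB477 it had 182, 195 and 194 CPM in naive and 405, 454 and 409 CPM in activated libraries, 2.22-fold apart (1.15 ± 0.05). Every activated library was above every naive one of its genotype, also in MB131 with RNAi (0.72 ± 0.05), in MB477 with RNAi (0.30 ± 0.05) and without CsChrimson (0.92 ± 0.05).

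Whether activation differed between flies with and without CsChrimson was tested as an interaction, the activation change in a line minus that in flies without CsChrimson. For MB131, 6 of the 9 genes changed less with CsChrimson and none more, against 2.7% of all genes tested higher and 3.53% lower. The difference was largest for inaD, at -0.85 ± 0.06 on the log2 scale (edgeR adjusted p = 7.34e-21), followed by inaC (-0.35 ± 0.07), Arr2 (-0.25 ± 0.05) and trp (-0.21 ± 0.05). Those of ninaC (-0.18 ± 0.05, adjusted p = 0.0257) and Arr1 (-0.18 ± 0.05, adjusted p = 0.0253) were borderline. Each lost the call without any 1 of several libraries, for ninaC MB131 activated replicate 3, MB131 naive replicate 3, activated replicate 1 or naive replicate 3 without CsChrimson (-0.17, -0.15, -0.16 and -0.15). The ninaC call was also lost with no filter on low counts (-0.17, adjusted p = 0.0573) and with only the compared groups in the model (-0.19, 0.0519), within 0.00697 to 0.116 over all alternatives. For Arr1 these were MB131 activated replicates 1 and 2, MB131 naive replicate 1, and activated replicates 2 and 3 and naive replicate 1 without CsChrimson (values of -0.18 to -0.14; adjusted p of 0.00335 to 0.13 over all alternatives). The values of trpl (-0.01 ± 0.06), norpA (-0.06 ± 0.06) and chp (0.01 ± 0.07) did not pass. The 13 other photoreceptor genes had 0 higher and 4 lower (median -0.08), beside a median of -0.18 for the 9. Kenyon cell markers had 0 higher and 8 lower of 10 (median -0.33), and pan-neuronal markers 0 and 0 of 6 (median -0.02). Glia markers had 1 higher and 1 lower of 7 (median 0.01), and muscle markers 0 and 1 of 7 (median -0.05). Fat body markers had 4 higher and 0 lower of 5 (median 1.17). The part of these genes and markers was not tested.

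The same comparison for MB477, which shares the libraries without CsChrimson, gave 2 genes with a larger and 3 with a smaller change, against 26.6% of all genes tested higher and 20.2% lower. Smaller were inaD (-0.84 ± 0.06, edgeR adjusted p = 2.77e-21), trp (-0.59 ± 0.05) and norpA (-0.57 ± 0.06). Larger were chp (0.23 ± 0.07, adjusted p = 0.00264) and Arr1 (0.20 ± 0.05). The values of trpl, inaC, ninaC and Arr2, between -0.06 and 0.07, did not pass. The MB477 comparison also rests on the MB477 naive libraries that stood apart. The flies without CsChrimson are of an unnamed line, so line and CsChrimson cannot be told apart in either comparison.

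With Kdm4B RNAi, most of the genes that passed were lower in naive MB131 flies and higher in naive MB477 flies. In MB131, 4 genes were lower and 1 was higher, against 4.92% of all genes tested higher and 6.12% lower. Arr2 was lower, at 2397, 2311 and 2338 CPM with RNAi (-0.41 ± 0.03, edgeR adjusted p = 1.96e-17), and so were inaD (-0.36 ± 0.05), trp (-0.27 ± 0.04) and Arr1 (-0.26 ± 0.04), with no overlap between groups. The higher gene was trpl (0.12 ± 0.04, adjusted p = 0.0339). That call was lost without MB131 naive replicate 1 or 2 (0.13 and 0.10), without RNAi naive replicate 1 or 2 (0.11 and 0.12), or when the model held only these groups (0.12), with adjusted p-values of 0.00198 to 0.149 over all alternatives. The values of norpA, inaC, ninaC and chp, from -0.10 to -0.05, did not pass. Beside these, the 13 other photoreceptor genes had 0 higher and 8 lower (median -0.28), against a median of -0.10 for the 9. Muscle markers had 0 higher and 6 lower of 7 (median -0.24) and Kenyon cell markers 0 higher and 3 lower of 10 (median -0.07). The part of these genes and markers was not tested.

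In naive MB477 flies 7 genes were higher with RNAi and 2 were lower, against 30.6% of all genes tested higher and 30.5% lower. The arrestin gene Arr1 differed most, with 1258, 1336 and 1226 CPM with RNAi against 826, 790.5 and 786 CPM without (0.67 ± 0.04, edgeR adjusted p = 1.75e-29). Next came chp (0.65 ± 0.05), inaC (0.62 ± 0.06), Arr2 (0.55 ± 0.03), ninaC (0.42 ± 0.04), trpl (0.30 ± 0.04) and inaD (0.28 ± 0.05). Lower were norpA, at 732, 696 and 749 CPM with RNAi (-0.44 ± 0.04), and trp (-0.18 ± 0.04). Markers of other cells moved too: Kenyon cell markers had 8 higher and 2 lower of 10 (median 1.33), pan-neuronal markers 4 higher and 1 lower of 6 (median 0.85), glia markers 6 higher and 0 lower of 7 (median 0.38) and muscle markers 0 higher and 7 lower of 7 (median -1.03), beside a median of 0.42 for the 9. The 13 other photoreceptor genes had 9 higher and 3 lower (median 0.42). The part of these genes and markers in the result was not tested. Most of the genes tested were called in this comparison too, and it rests on the MB477 naive libraries that stood apart.

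Among activated flies, RNAi went with lower levels in both lines. In MB131, 6 genes were lower and none higher, against 5.84% of all genes tested higher and 5.65% lower: trp (-0.29 ± 0.04, edgeR adjusted p = 9.05e-10), inaD (-0.29 ± 0.04), chp (-0.27 ± 0.05), inaC (-0.23 ± 0.05), Arr2 (-0.18 ± 0.03) and ninaC (-0.16 ± 0.04). The values of trpl (-0.01 ± 0.04), norpA (-0.03 ± 0.04) and Arr1 (-0.07 ± 0.04) did not pass. In MB477, 7 were lower and none higher, against 11.9% of all genes tested higher and 10.0% lower, led by ninaC (-0.30 ± 0.04, adjusted p = 2.58e-10) and trpl (-0.26 ± 0.04). Others were chp (-0.20 ± 0.05), trp (-0.18 ± 0.04) and Arr1 (-0.15 ± 0.04). The changes of inaC (-0.21 ± 0.05, adjusted p = 0.00111) and inaD (-0.17 ± 0.05, adjusted p = 0.00359) depended on activated RNAi replicate 3, the lowest library of its group for both genes. Without it they were -0.15 (adjusted p = 0.0507; 0.000126 to 0.0507 over all alternatives) and -0.12 (adjusted p = 0.0983; 0.00188 to 0.0983 over all alternatives). Those of norpA and Arr2, at -0.06 ± 0.04 and -0.04 ± 0.03, did not pass. In activated MB131 flies, muscle markers had 0 higher and 7 lower of 7 (median -0.87) with RNAi and Kenyon cell markers 5 higher and 0 lower of 10 (median 0.15). In activated MB477 flies Kenyon cell markers had 8 higher and 0 lower of 10 (median 0.31), muscle markers 0 higher and 6 lower of 7 (median -0.21) and fat body markers 0 higher and 5 lower of 5 (median -0.32). The 13 other photoreceptor genes had 0 higher and 4 lower (median -0.16) in MB131 and 0 higher and 2 lower (median -0.03) in MB477. The 9 genes had a median of -0.18 in both lines. The part of these genes and markers was not tested. Among the 9 genes, the largest RNAi difference in activated flies was 0.81 times the level without RNAi (ninaC in MB477).

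**Figure D3:**
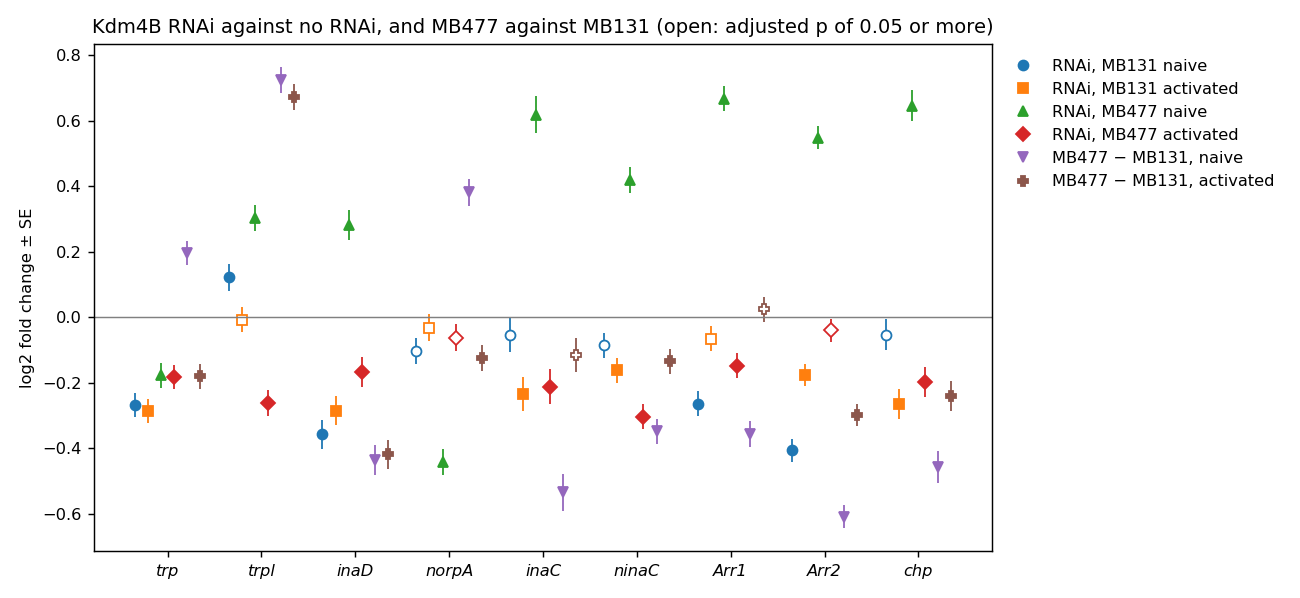
Log2 fold change (y axis) of Kdm4B RNAi against no RNAi in 4 settings, and of MB477 against MB131 in naive and activated flies, for each gene (x axis), with bars of 1 SE and open symbols where the adjusted p was 0.05 or more. RNAi values in activated flies lie between -0.30 and -0.01, RNAi values in naive MB477 flies reach 0.67, and trpl is the one gene well above 0 in both line comparisons.

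How RNAi changed the response to activation was tested as a second interaction, the activation change with RNAi minus that without. In MB131 the response was larger with RNAi for 2 genes and smaller for 1, against 3.26% of all genes tested higher and 2.79% lower. The larger ones were the arrestins Arr2 (0.23 ± 0.05, edgeR adjusted p = 0.000401) and Arr1 (0.20 ± 0.05, adjusted p = 0.0113), and the smaller was chp (-0.21 ± 0.07, adjusted p = 0.033). The Arr1 call was lost without MB131 naive replicate 1 (0.16) or RNAi activated replicate 2 (0.18), with adjusted p-values of 0.00121 to 0.0796 over all alternatives. The chp call was lost without any 1 of 7 libraries, namely MB131 activated replicate 1, MB131 naive replicates 1 and 2, RNAi activated replicates 1 and 3 and RNAi naive replicates 2 and 3 (values from -0.21 to -0.17, adjusted p of 0.00939 to 0.196 over all alternatives). Without MB131 naive replicate 1 only Arr2 of the 9 genes passed. The other 6 genes had values from -0.18 (inaC) to 0.07 (inaD). The 13 other photoreceptor genes had 4 higher and 0 lower (median 0.15), beside a median of -0.02 for the 9. Kenyon cell markers had 5 higher and 0 lower of 10 (median 0.24), and pan-neuronal markers 0 and 0 of 6 (median -0.03). Muscle markers had 0 higher and 7 lower of 7 (median -0.65), and core clock genes 4 and 0 of 8 (median 0.27). The part of these genes and markers was not tested.

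In MB477 the response was smaller with RNAi for 7 genes and larger for norpA, against 24.7% of all genes tested higher and 26.9% lower. It was smaller by the most for chp (-0.85 ± 0.07, edgeR adjusted p = 1.04e-20), inaC (-0.83 ± 0.08), Arr1 (-0.82 ± 0.05) and ninaC (-0.72 ± 0.06). Arr2 (-0.59 ± 0.05), trpl (-0.56 ± 0.06) and inaD (-0.45 ± 0.07) followed, and norpA had 0.38 ± 0.06. The channel gene trp had -0.01 ± 0.05 (adjusted p = 0.948), with activation changes of 0.32 ± 0.04 and 0.31 ± 0.04 in the genotypes compared. The 13 other photoreceptor genes had 1 higher and 9 lower (median -0.47), beside a median of -0.59 for the 9. Kenyon cell markers had 3 higher and 7 lower of 10 (median -1.17), and pan-neuronal markers 1 higher and 5 lower of 6 (median -1.12). Muscle markers had 7 higher and 0 lower of 7 (median 0.85). The part of these genes and markers was not tested. This comparison rests on the MB477 naive libraries as well.

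Between lines, trpl had the largest difference of the 9 genes. In naive flies trpl had 641, 653 and 645 CPM in MB477 against 396, 382 and 395 CPM in MB131, 1.65-fold higher (0.72 ± 0.04, edgeR adjusted p = 6.71e-31). In activated flies it was 1.59-fold higher (0.67 ± 0.04, adjusted p = 1.5e-28), the one gene of the 9 that was higher in MB477 in both states. Naive MB477 flies had 3 of the 9 genes higher and 6 lower than naive MB131 flies, against 29.0% of all genes tested higher and 31.6% lower. Higher beside trpl were norpA (0.38 ± 0.04) and trp (0.20 ± 0.04). Lower were Arr2 (-0.61 ± 0.03), inaC (-0.54 ± 0.06), chp (-0.46 ± 0.05), inaD (-0.44 ± 0.05), Arr1 (-0.36 ± 0.04) and ninaC (-0.35 ± 0.04). The 13 other photoreceptor genes had 2 higher and 9 lower (median -0.42), beside a median of -0.36 for the 9. Kenyon cell markers had 2 higher and 8 lower of 10 (median -1.47), and pan-neuronal markers 1 higher and 5 lower of 6 (median -0.81). Glia markers had 0 higher and 5 lower of 7 (median -0.53). Muscle markers had 6 higher and 0 lower of 7 (median 0.63), and fat body markers 5 higher and 0 lower of 5 (median 0.84). The part of these genes and markers was not tested.

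Activated MB477 flies, which do not involve the libraries that stood apart, had 1 gene higher and 6 lower, against 14.4% of all genes tested higher and 14.8% lower. Lower were inaD (-0.42 ± 0.04, edgeR adjusted p = 1.16e-13), Arr2 (-0.30 ± 0.03), chp (-0.24 ± 0.05), trp (-0.18 ± 0.04), ninaC (-0.13 ± 0.04) and norpA (-0.12 ± 0.04, adjusted p = 0.0113). The norpA call was lost without activated replicate 2 of MB131 (-0.11) or of MB477 (-0.11), with adjusted p-values of 0.00022 to 0.0648 over all alternatives. Arr1 (0.02 ± 0.04) and inaC (-0.12 ± 0.05, adjusted p = 0.0827) did not pass. The inaC value passed without MB477 activated replicate 1 (-0.15, adjusted p = 0.0473), with DESeq2 (-0.13), with library totals (-0.16) and when the model held only these groups (-0.11), within 0.00915 to 0.386 over all alternatives. The 13 other photoreceptor genes had 1 higher and 10 lower (median -0.27), beside a median of -0.13 for the 9. Kenyon cell markers had 0 higher and 10 lower of 10 (median -0.58), and pan-neuronal markers 0 higher and 4 lower of 6 (median -0.18). Glia markers had 1 higher and 5 lower of 7 (median -0.19). Muscle markers had 6 higher and 0 lower of 7 (median 0.49), and fat body markers 5 higher and 0 lower of 5 (median 0.92). The part of these genes and markers was not tested.

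Ratios between pairs of the genes within a library do not depend on how libraries are scaled. The CPM of trp over trpl was 2.13 ± 0.08 (mean ± SD, n = 3) in naive and 2.05 ± 0.06 in activated MB131 libraries and 2.09 ± 0.08 and 2.31 ± 0.10 without CsChrimson. With RNAi in MB131 it was 1.63 ± 0.05 and 1.69 ± 0.01. In the MB477 genotypes it was lower, at 1.48 ± 0.07 and 1.13 ± 0.03 without RNAi and 1.06 ± 0.01 and 1.20 ± 0.03 with it, so every MB477 library had relatively more trpl than every MB131 library without RNAi.

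The pair of INAD complex genes inaD and inaC had a CPM ratio of 2.22 ± 0.07 in activated libraries without CsChrimson, above 1.87 ± 0.10 in the naive ones. In MB131 and MB477 without RNAi the ratio was instead lower when activated, at 1.56 ± 0.02 against 1.87 ± 0.07 and at 1.27 ± 0.08 against 2.002 ± 0.01. The ratio of norpA to ninaC was 1.65 ± 0.12 in MB477 naive libraries. The other 9 groups had means of 0.81 to 1.04 for it.

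**Figure D4:**
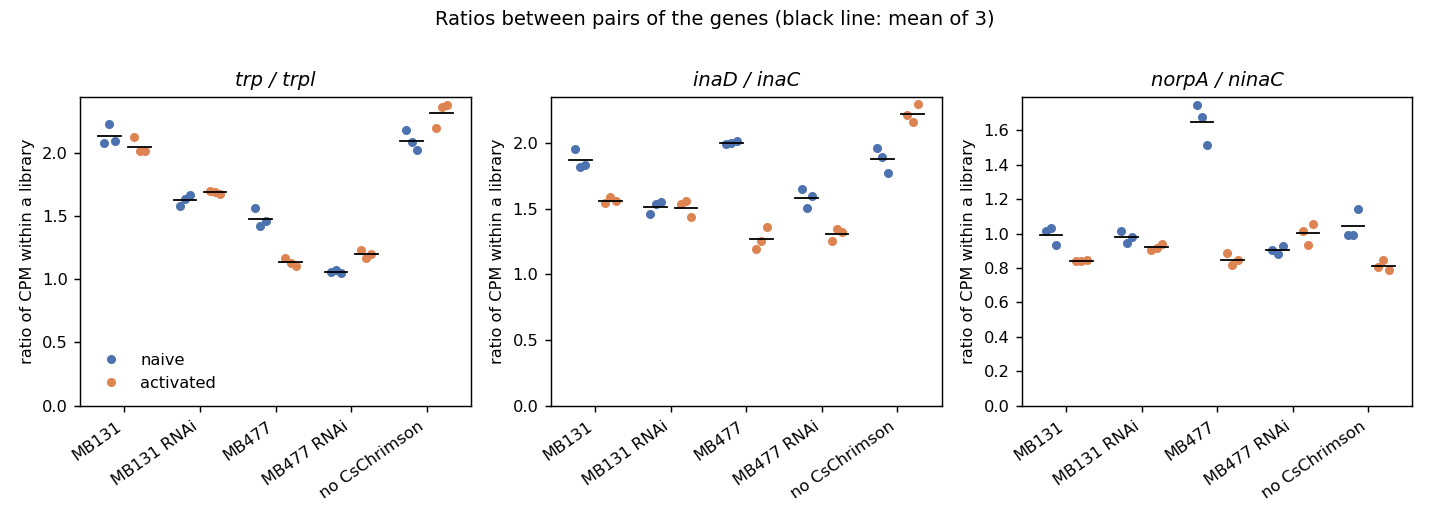
Ratio of CPM within each library (y axis, from 0) for trp over trpl, inaD over inaC and norpA over ninaC, by genotype (x axis), with naive libraries in blue, activated ones in orange and a black line at the mean of 3 libraries. The trp to trpl ratio has group means of 2.05 to 2.31 in MB131 without RNAi and in flies without CsChrimson and 1.06 to 1.48 in the MB477 groups, and the norpA to ninaC ratio of the MB477 naive libraries, with a mean of 1.65, stands above all others.

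Other genes of the cascade had smaller median changes than the 9, a difference that was not tested. Bulk nuclei do not show which cells the transcripts of either list came from. Of 20 others tested, such as G protein subunits and the enzymes of lipid turnover, 8 were higher and 1 lower with activation in MB131 (median log2 fold change 0.18), 13 and 1 in MB131 with RNAi (0.18), and 14 and 1 without CsChrimson (0.17). In MB477 the counts were 10 and 5 (0.08), and with RNAi 2 and 4 (-0.05). Of all genes tested, 31.8% were higher and 27.7% lower in MB477, and 15.6% and 13.1% there with RNAi. The other genotypes had 11.1% to 13.8% higher and 9.98% to 13.0% lower. Gbeta76C, the beta subunit of the eye's Gq protein, rose in 4 of the 5 comparisons, by 0.45 ± 0.04 without CsChrimson, 0.68 ± 0.05 in MB477, 0.20 ± 0.04 in MB131 and 0.40 ± 0.04 when RNAi was added to MB131, with -0.08 ± 0.04 (edgeR adjusted p = 0.164) in MB477 with RNAi. The rhodopsin phosphatase gene rdgC had its largest change in MB477 (1.33 ± 0.06), where its naive level of 65.6 ± 3.93 CPM was the lowest of the 10 groups. In contrast laza, a phosphatidic acid phosphatase gene, was lower with activation in MB131 (-0.34 ± 0.06), in MB131 with RNAi (-0.49 ± 0.06) and in MB477 with RNAi (-0.54 ± 0.06). The gene inaF-B, whose product associates with TRP, was close to absent in MB477 naive libraries at 0.247 ± 0.0932 CPM, against group means of 6.13 to 9.57 CPM elsewhere.

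Rhodopsin and chromophore genes, of which 13 were tested, gave 7 higher and 1 lower with activation in flies without CsChrimson (median log2 fold change 0.32). The counts were 7 and 2 for MB131 (0.39) and 7 and 1 when RNAi was added (0.54). For MB477 they were 7 and 1 (0.18), and 4 and 1 when RNAi was added (0.16). Of all genes tested, 31.8% were higher and 27.7% lower in MB477. The other genotypes had 11.1% to 15.6% higher and 9.98% to 13.1% lower. ninaE, which encodes rhodopsin 1 of the outer photoreceptors, was higher in all 5, from 0.27 ± 0.03 in MB477 with RNAi to 1.49 ± 0.03 in MB477, where it went from 4676 ± 123 to 13090 ± 64.8 CPM. Rh3 and Rh4, the rhodopsins of R7 cells, rose in the same 4 comparisons as Gbeta76C, by 0.41 to 0.72. ninaB, which encodes the carotenoid oxygenase of chromophore synthesis, was lower in all 5, from -0.45 ± 0.04 in MB131 with RNAi to -1.01 ± 0.05 in MB477.

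**Figure D5:**
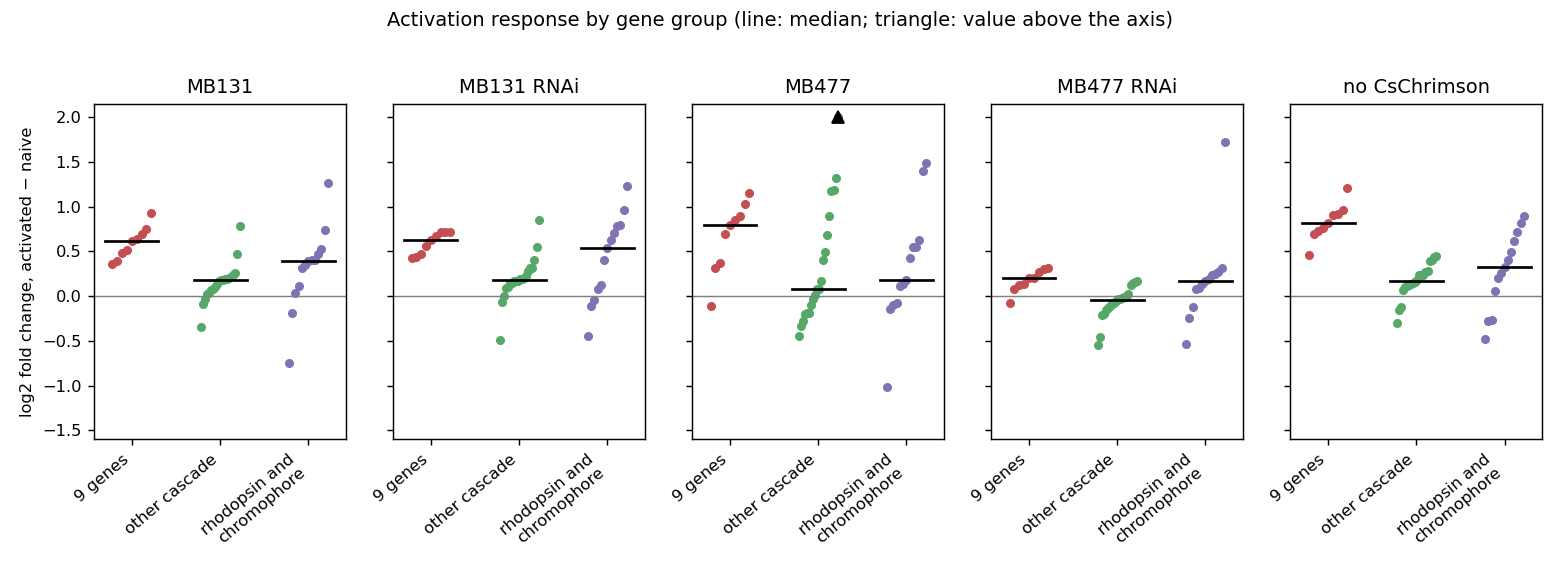
Log2 fold change of activated against naive libraries (y axis) for the 9 genes, 20 other cascade genes and 13 rhodopsin and chromophore genes in each genotype, with 1 point per gene and a black line at the group's median; a triangle marks inaF-B, whose value lies above the axis. The median of the 9 genes is 0.62 in MB131 against 0.18 for the other cascade genes, and 0.20 against -0.05 in MB477 with RNAi.

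Each gene was also set against 13 other photoreceptor genes of the same library (rhodopsins, eye regulators and cascade genes outside the 9), as the log2 CPM of the gene minus the mean log2 CPM of the 13. The median of this ratio's change with activation over the 9 genes was 0.35 without CsChrimson, 0.25 in MB131, 0.16 when RNAi was added, 0.23 in MB477 and 0.12 there with RNAi. The ratio was higher when activated for 8, 8, 7, 6 and 7 of the 9 genes in that order. With ninaE alone in place of the 13, the medians turned to -0.0011, -0.12, -0.34, -0.69 and -0.069, so whether the 9 gained on other photoreceptor transcripts depended on which were used. The gene chp gained on the 13 in each genotype, by 0.22 in MB477 with RNAi to 0.59 in MB477. The scaffold gene inaD gained 0.74 without CsChrimson but had -0.19 to -0.01 in the other 4, and norpA had -0.67 in MB477. These ratios are descriptions and were not tested. The 13 reference genes themselves were higher for 12, 11, 9, 3 and 13 and lower for 0, 0, 1, 1 and 0 in MB131, its RNAi genotype, MB477, its RNAi genotype and the flies without CsChrimson. Of all genes tested, 31.8% were higher and 27.7% lower in MB477. The other genotypes had 11.1% to 15.6% higher and 9.98% to 13.1% lower.

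Markers of other cell types and of stress moved with activation as well. Of all genes tested, 31.8% were higher and 27.7% lower with activation in MB477. The other genotypes had 11.1% to 15.6% higher and 9.98% to 13.1% lower. All 7 tested heat shock genes were higher in all 5 comparisons, with a summed level of 1525 to 1581 CPM in naive and 9229 to 9489 CPM in activated MB131 libraries. Without CsChrimson this sum was 853 to 859 CPM when naive and 6508 to 6602 CPM when activated. All 5 tested fat body markers were higher in each of the 4 genotypes with CsChrimson, whereas 1 was higher and 2 lower without it. Their sum was 13592 to 13883 CPM in naive and 24689 to 26181 CPM in activated MB131 libraries, and 13376 to 16424 and 12471 to 14534 CPM without CsChrimson. Of 7 muscle markers, 7 were lower in MB131 and in its RNAi genotype, 4 lower and 1 higher in MB477, 6 lower without CsChrimson, and 7 higher in MB477 with RNAi, where the sum was 3488 to 3590.1 CPM when naive and 4535 to 4819.7 CPM when activated.

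Of 10 Kenyon cell markers, 6 were lower in MB131, 2 higher and 2 lower in its RNAi genotype, 6 higher and 4 lower in MB477, 1 higher and 7 lower in its RNAi genotype, and 6 higher and 1 lower without CsChrimson. Calls were common across all genes tested in MB477, with 31.8% higher and 27.7% lower. The other genotypes had 11.1% to 15.6% higher and 9.98% to 13.1% lower. Between naive lines, 8 Kenyon cell markers were lower and 2 higher in MB477 (median -1.47), with a sum of 2873 to 2942 CPM against 4578 to 4810.4 CPM in MB131. Of all genes tested, 31.6% were lower and 29.0% higher between naive lines. Pan-neuronal markers also rose in most comparisons, with 4 higher and 0 lower of 6 (median 0.23) in MB131, 4 higher and 0 lower of 6 (median 0.13) in its RNAi genotype, 5 higher and 1 lower of 6 (median 0.99) in MB477, 1 higher and 3 lower of 6 (median -0.10) in its RNAi genotype and 5 higher and 0 lower of 6 (median 0.18) without CsChrimson. The MB477 median of these markers lies above the 0.80 of the 9 genes, and their sum there was 4256 to 4497 CPM in naive and 5324 to 5514 CPM in activated libraries. Glia markers had 1 higher and 3 lower of 7 (median -0.08), 1 higher and 4 lower of 7 (median -0.16), 5 higher and 1 lower of 7 (median 0.26), 1 higher and 4 lower of 7 (median -0.17) and 2 higher and 3 lower of 7 (median -0.16) in the same order.

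Core clock genes separated the naive from the activated libraries of flies without CsChrimson, where they had 2 higher and 6 lower of 8 (median -0.55). There vri (-1.76 ± 0.06), tim (-1.35 ± 0.04), per (-0.85 ± 0.07) and Pdp1 (-0.81 ± 0.04) were lower, and their list summed to 5843 to 6626 CPM when naive and 3459 to 3544 CPM when activated. The other 8 groups had sums of 3328 to 4172 CPM. The clock counts were 1 higher and 5 lower of 8 (median -0.30) in MB131, 2 higher and 2 lower of 8 (median 0.01) in its RNAi genotype, 5 higher and 2 lower of 8 (median 0.18) in MB477 and 2 higher and 2 lower of 8 (median 0.04) in its RNAi genotype. Of all genes tested, 31.8% were higher and 27.7% lower with activation in MB477. The other genotypes had 11.1% to 15.6% higher and 9.98% to 13.1% lower. Eye pigment and lens cell markers, 7 in number, had 1 higher and 3 lower in MB131 and in MB477, 2 and 2 in both RNAi genotypes, and 1 and 4 without CsChrimson. Without w, the pigment transporter gene white, the other 6 summed to 217 to 405 CPM over all libraries. w alone ran from 69.3 to 88.8 CPM in activated flies without CsChrimson to 2232 to 2275 CPM in activated MB477 flies with RNAi. None of the tested markers was at 0 in all libraries, and their part in the changes of the 9 genes was not tested.

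The 9 genes shared a pattern over the 10 groups to different degrees. Across the group means of log2 CPM (n = 10), Pearson's r between each gene and the mean of the other 8 was highest for ninaC (0.963), Arr1 (0.945), inaC (0.933) and chp (0.926), and it was 0.902 for trp and 0.901 for Arr2. It was lower for inaD (0.685), norpA (0.613) and trpl (0.47), the genes with the group-specific levels described above. Over the 30 libraries the 36 pairs had r of 0.042 (trpl and inaD) to 0.973 (ninaC and chp) with a median of 0.76. Of 7668 other genes with a mean of at least 10 CPM, 24 had r of at least 0.9 with the mean of the 9, and the median was 0.074. The 10 most alike were boss, a ligand gene of R8 photoreceptors (0.959), CG11089 (0.95), the neuropeptide gene Dh31 (0.941), ssp (0.938), CG18815 (0.938), CG14353 (0.934), the glutamate dehydrogenase gene Gdh (0.933), the kinase gene S6kII (0.93), ninaE (0.93) and gammaCOP (0.93), a coat protein gene. These points share libraries and scaling, so the correlations are given as descriptions.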

How the data were processed

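Nuclear RNA was measured in 30 libraries, grouped by their titles into 10 groups of 3. The deposited table holds read counts per gene that the authors made with STAR on dm6 and HTSeq, per the submitters' processing notes. The sources used here give no versions, strand setting or handling of multi-mapped reads. The authors' table of comparisons was not used here. The table had 0 columns outside the labelled samples. The count model was edgeR 4.0.16 under R 4.3.3, with filterByExpr (minimum count 10, minimum total 15), TMM scaling, 1 mean per group over all 30 libraries, robust glmQLFit and glmQLFTest, and Benjamini-Hochberg adjustment over 11457 genes with a threshold of 0.05. The common biological coefficient of variation was 6.32%. SE is the absolute log2 fold change divided by the square root of F. The model was tested on simulated data. Total counts per library of 8291599 to 14344348 limit the precision; intervals cover the spread between libraries only. No replicate pair was identical (chi-square per degree of freedom 2.84 to 6.90). Genes were matched by name, with 3 of 111 listed genes found through a synonym or names table and 1 not found; 4 listed genes were not tested. Named are the 9 genes, ninaE, up to 4 called genes per list and comparison with the largest change, the 10 genes most like the 9 and Kdm4B. Alternatives were RLE size factors, no filter, DESeq2 1.42.0, a model of the compared groups only, a replicate block, each library left out, the MB477 naive libraries left out, library totals for levels and, added after seeing the data, in the model, and ninaE as reference. The genes, lists and tests were chosen with earlier results of these data known.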

Additional observations from a re-analysis of the deposited data

Results flagged for a closer look

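The response to activation differed between genotypes, by a test of the difference itself (edgeR interaction, adjusted p under 0.05), for 22 combinations of gene and comparison. Of these, 8 were in the RNAi comparison in MB477, where 24.7% of all genes tested were called higher and 26.9% lower, and 5 in the comparison of MB477 with flies without CsChrimson, where the shares were 26.6% and 20.2%. The comparisons for MB131 had shares of 3.26% and 2.79% (RNAi) and 2.7% and 3.53% (CsChrimson). With Kdm4B RNAi in MB131, the log2 fold change with activation was larger by 0.20 for Arr1 and 0.23 for Arr2 and differed by -0.21 for chp. The Arr1 and chp calls were lost when some single libraries were left out (edgeR adjusted p up to 0.0796 and 0.196). With RNAi in MB477 it differed by -0.565 for trpl, -0.45 for inaD, -0.83 for inaC, -0.72 for ninaC, -0.82 for Arr1, -0.59 for Arr2 and -0.85 for chp, and by 0.38 for norpA. Against flies without CsChrimson, MB131 differed by -0.21 for trp, -0.85 for inaD, -0.35 for inaC, -0.18 for ninaC, -0.18 for Arr1 and -0.25 for Arr2, of which the ninaC and Arr1 calls were also lost without some single libraries (adjusted p up to 0.116 and 0.13). MB477 differed from those flies by -0.59 for trp, -0.84 for inaD, -0.57 for norpA, 0.20 for Arr1 and 0.23 for chp. The RNAi comparison in MB477 and the comparison of MB477 with flies lacking CsChrimson both use the MB477 naive libraries that stood apart. Both comparisons with flies lacking CsChrimson share the same 6 libraries.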

How the results depend on the processing

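Counts of called genes among the 9 moved by at most 1.5 times in every comparison under the alternatives refitted (RLE, library totals, no filter, block, compared groups only, DESeq2, each library left out and, for 10 comparisons, MB477 naive libraries left out) except the RNAi interaction in MB131, where 3 genes became 1 to 3 when a library was left out. Leaving out each library gave 1026 values, of which 978 kept direction and call, 32 lost and 3 gained the call and 13 changed sign. The other refitted alternatives gave 900 values, of which 883 kept both. Library totals in the model, chosen after seeing the data, changed 8 of 135 values, 5 of them for activation in MB477 with RNAi, where 5 genes were called in place of 7. Sign changes were all in values that did not pass: trpl under RNAi in activated MB131 flies (0.00021 with DESeq2, 0.00025 with RLE size factors, -0.0313 to 0.0024 with a library left out), Arr1 with library totals for activation in MB477 with RNAi (-0.0077) and for the line comparison in activated flies (-0.023), trp in the RNAi interaction in MB477 (0.0176 with only the compared groups, -0.0571 to 0.0171 with a library left out), and, with a library left out, trpl (-0.0354 to 0.0389) and chp (-0.0203 to 0.0438; -0.0025 with library totals) in the CsChrimson interaction in MB131. Scaling by library totals without TMM factors moved the mean log2 CPM of the 9 genes by more than the spread between replicates in 8 groups, from 9.16 and 9.76 to 9.19 and 9.74 in naive and activated MB131, from 8.99 and 9.59 to 9.04 and 9.57 with RNAi, from 9.0 and 9.67 to 8.98 and 9.61 in MB477 and from 9.32 and 9.49 to 9.35 and 9.43 with RNAi. With ninaE alone as reference the median changes relative to it were -0.12 (MB131), -0.34 (with RNAi), -0.69 (MB477), -0.069 (with RNAi) and -0.0011 (no CsChrimson), below 0 where those relative to the 13 genes were above it. Samples with the same replicate number did not deviate together (33 correlations of -0.032 to 0.055), and the model with a replicate block kept the direction and side of the threshold of all 135 values, with 9, 9, 9, 7 and 9 genes called for activation, 5, 6, 9 and 7 for RNAi, 3, 8, 6 and 5 for the interactions, and 9 and 7 for the line comparisons. Depth limits Kdm4B (2 to 26 counts per library).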
